A study of Mus musculus with 6 samples.

Results

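The nuclear genes for the mitochondrial respiratory chain and ATP synthase were followed in mouse blood progenitors with and without added Hhex. They were taken by symbol: every gene whose symbol starts with Nduf, Uqcr, Cox4, Cox5, Cox6, Cox7, Cox8 or Atp5, together with Sdha, Sdhb, Sdhc, Sdhd, Cyc1 and Cycs. Of the 12161 genes measured, 90 met this rule. They comprise 36 subunit genes of complex I, 7 of its assembly factors, 4 of complex II, 8 of complex III, the cytochrome c gene Cycs, 15 of complex IV, Cox7a2l, 15 of ATP synthase, Atp5s, Atp5sl and the pseudogene Atp5c1-ps.

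Messenger RNA was sequenced from LSK cells of C57BL/6 mice. LSK stands for lineage-negative, Sca1-positive and Kit-positive, the bone marrow fraction with blood stem cells and early progenitors. The cells were sorted, infected with retrovirus on coated plates, and kept for 2 days in medium with SCF and Flt3 ligand (50 ng/mL each), IL-6 (10 ng/mL) and IL-3 (10 ng/mL). RNA came from GFP-positive cells. The control group, 3 libraries, carried the vector MIG and is labelled wild-type; the other group, 3 libraries, carried MIG-Hhex and is labelled Hhex. All 6 libraries thus share the strain, infection, cytokines and GFP sort. Replicates are named WT3, WT691 and WT703, with 1 library of each in each group. Both WT3 libraries were run on flow cell C3RJFACXX and the other 4 on flow cell C5LWPANXX. The labels do not say whether replicates came from separate animals, so the p-values measure only the spread between these libraries. The design thus measures Hhex added by a retroviral vector to cultured cells that already express it.

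Complex I takes electrons from NADH and complex II from succinate, and coenzyme Q carries them to complex III. Cytochrome c then passes them to complex IV, which reduces oxygen. Complexes I, III and IV pump protons across the inner mitochondrial membrane, and ATP synthase uses the gradient to make ATP. Blood stem cells are known for leaning on glycolysis while quiescent and for raising oxidative phosphorylation as they enter the cycle and differentiate. Hhex is a homeobox transcription factor of early blood and endothelial cells.

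Few of these genes differed beyond the spread of the libraries. Cox4i2, the alternative isoform of a regulatory complex IV subunit, and Cox7a2l, a factor known for joining complexes III and IV, rose with MIG-Hhex. The complex I assembly factors Ndufaf7 and Ndufaf6 fell. The other 86 did not pass the threshold (limma, adjusted p under 0.05). Thus 2 of 90 were higher, against 9.44% of all genes, and 2 were lower, against 8.52%. In either direction, 4.44% of the members passed, against 18.0% of all genes. All 4 calls were lost without the flow cell term, and quantile normalization gave 4 higher and 2 lower. With the replicate number as a block in place of the flow cell, 4 members were higher and 4 lower. Over all genes that fit gave 12.4% higher and 12.1% lower.

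The start regions of 5 members are shown because the results below turn on them or on their sequence features. Ndufaf7 and Cox7a2l are the called members with an entry in the RefSeq promoter table of GRCm38.p6. Ndufaf4 and Ndufaf5 are assembly factors whose windows hold matches to the motif of NRF1, a known activator of respiratory chain genes, and Sdha holds several. Each window runs from 250 bases before to 50 bases after the annotated start, 5′ to 3′ on the gene's strand. Capitals mark matches to the motifs of NRF1, SP1, YY1 and ETS factors on either strand. The windows are chr17:78936885-78937184, plus strand, for Ndufaf7; chr17:83514284-83514583, minus strand, for Cox7a2l; chr4:24897833-24898132, plus strand, for Ndufaf4; chr2:140170396-140170695, plus strand, for Ndufaf5; and chr13:74350191-74350490, minus strand, for Sdha.
Ndufaf7: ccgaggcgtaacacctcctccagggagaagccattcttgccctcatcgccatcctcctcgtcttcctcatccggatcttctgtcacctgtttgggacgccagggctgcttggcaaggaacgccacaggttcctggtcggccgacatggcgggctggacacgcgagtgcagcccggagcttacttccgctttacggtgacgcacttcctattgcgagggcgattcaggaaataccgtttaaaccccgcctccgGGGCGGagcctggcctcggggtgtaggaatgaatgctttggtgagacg
Cox7a2l: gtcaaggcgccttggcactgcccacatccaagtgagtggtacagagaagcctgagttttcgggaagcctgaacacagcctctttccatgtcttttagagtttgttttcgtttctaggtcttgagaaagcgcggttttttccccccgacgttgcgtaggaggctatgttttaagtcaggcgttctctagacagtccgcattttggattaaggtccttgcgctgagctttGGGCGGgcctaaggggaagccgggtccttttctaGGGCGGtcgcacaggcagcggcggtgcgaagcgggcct
Ndufaf4: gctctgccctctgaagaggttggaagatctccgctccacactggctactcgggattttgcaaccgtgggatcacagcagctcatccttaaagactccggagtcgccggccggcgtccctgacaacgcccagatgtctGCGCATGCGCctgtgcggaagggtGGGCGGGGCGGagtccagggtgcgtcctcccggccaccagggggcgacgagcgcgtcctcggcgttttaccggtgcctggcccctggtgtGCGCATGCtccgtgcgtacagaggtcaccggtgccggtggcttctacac
Ndufaf5: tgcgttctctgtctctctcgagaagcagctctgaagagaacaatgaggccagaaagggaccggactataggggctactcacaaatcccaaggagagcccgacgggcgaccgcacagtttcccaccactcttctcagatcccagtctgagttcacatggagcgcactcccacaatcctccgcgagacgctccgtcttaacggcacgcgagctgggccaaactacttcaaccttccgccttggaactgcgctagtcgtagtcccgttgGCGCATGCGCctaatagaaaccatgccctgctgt
Sdha: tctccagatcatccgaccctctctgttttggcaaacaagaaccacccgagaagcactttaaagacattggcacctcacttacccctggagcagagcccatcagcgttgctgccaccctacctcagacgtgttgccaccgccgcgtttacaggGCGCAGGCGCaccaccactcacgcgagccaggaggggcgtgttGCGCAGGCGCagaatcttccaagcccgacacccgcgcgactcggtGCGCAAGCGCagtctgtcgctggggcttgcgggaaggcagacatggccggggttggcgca
The capitals in Ndufaf7 and Cox7a2l are SP1 matches. Those in Ndufaf5 and Sdha are NRF1 matches, and Ndufaf4 holds both kinds.

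A log2 expression value per gene and library was deposited. Its sequencing depth is unknown, and library medians lay between 3.56 and 3.60. The added gene, Hhex, read 8.67 ± 0.93 with MIG-Hhex and 5.12 ± 0.07 with MIG, with no overlap (SD, n = 3 each; log2 fold change 3.55, SE 0.32, limma adjusted p = 0.00189). By replicate, Hhex read 5.18, 5.05 and 5.13 with MIG and 7.61, 9.34 and 9.06 with MIG-Hhex, for WT3, WT691 and WT703 in turn. The pair differences were 2.43, 4.29 and 3.93, so the gain was smallest in WT3, which also has its own flow cell. The size of the gain and the flow cell cannot be told apart, and its part in the pair differences below was not tested. Of 8 stem and progenitor markers, all were measured and 1, Meis1, fell. The log2 fold change lay below 0 for 7 of them, at a median of -0.24. For 7 the difference was below 0 in all 3 same-numbered pairs, against 32.8% of all genes. Their summed log2 level with MIG was 7.59, 8.22 and 8.38 for WT3, WT691 and WT703 in turn. With MIG-Hhex it was 7.34, 8.0 and 8.23. Kit lay between 4.44 and 4.86 over the 6 libraries, whereas Ly6a, the Sca1 gene, was lower in both WT3 libraries (3.18 and 3.55) than in the other 4 (5.89 to 6.25). Among markers of maturing cells, 6 of 12 neutrophil granule genes rose and 2 fell, 3 of 9 monocyte and macrophage genes rose and 2 fell, and of 7 markers of mast cells and basophils 1 rose and 3 fell. In addition, 4 of 7 erythroid genes rose and 0 fell, and 2 of 6 megakaryocyte genes rose and 1 fell. Over all genes, 9.44% were higher and 8.52% lower. The summed log2 level of the neutrophil list lay between 12.85 and 13.26 with MIG and between 12.61 and 13.23 with MIG-Hhex. For monocytes the ranges were 8.43 to 9.67 and 8.14 to 9.73, for mast cells 7.78 to 8.88 and 7.56 to 8.31, for erythroid genes 3.56 to 5.06 and 4.86 to 5.74, and for megakaryocytes 5.99 to 6.52 and 6.14 to 6.55. In that order, 12 of 12, 9 of 10, 7 of 8, 7 of 9 and 6 of 7 listed markers were measured. In every same-numbered pair of libraries, the erythroid sum was higher with MIG-Hhex, and the neutrophil and mast cell sums were lower. The monocyte and megakaryocyte sums differed in sign between pairs. For WT3, WT691 and WT703 in turn, the erythroid sums were 5.06, 3.56 and 3.98 with MIG and 5.74, 4.91 and 4.86 with MIG-Hhex. The mast cell sums were 8.88, 8.02 and 7.78 with MIG and 8.31, 7.67 and 7.56 with MIG-Hhex. The part of these cell types in the results was not tested. In these bulk libraries, fewer cells of a type and less RNA per cell cannot be told apart.

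Respiratory chain genes were among the more highly expressed in these cells. The median of their MIG means was 6.92 on the deposited log2 scale, against 3.57 for all genes, and the means ran from 1.01 for Cox6a2, the heart and muscle isoform of a complex IV subunit, to 10.2 for Atp5b, the catalytic beta subunit of ATP synthase. The median log2 fold change over the 90 genes was 0.06, against -0.02 for all genes, and 33 values (36.7%) lay below 0, against 53.9% of all genes. Sizes were small: 70 members (77.8%) had a log2 fold change within 0.2 of 0, against 55.6% of all genes, and 5 (5.56%) lay beyond 0.5, against 18.3%. For 69 members (76.7%) the 95% interval of the log2 fold change lay wholly within 0.5 of 0, as for 57.9% of all genes. At an unadjusted p under 0.05, 9 members were higher and 6 lower, where 34.3% of all genes passed in either direction.

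**Figure D1:**
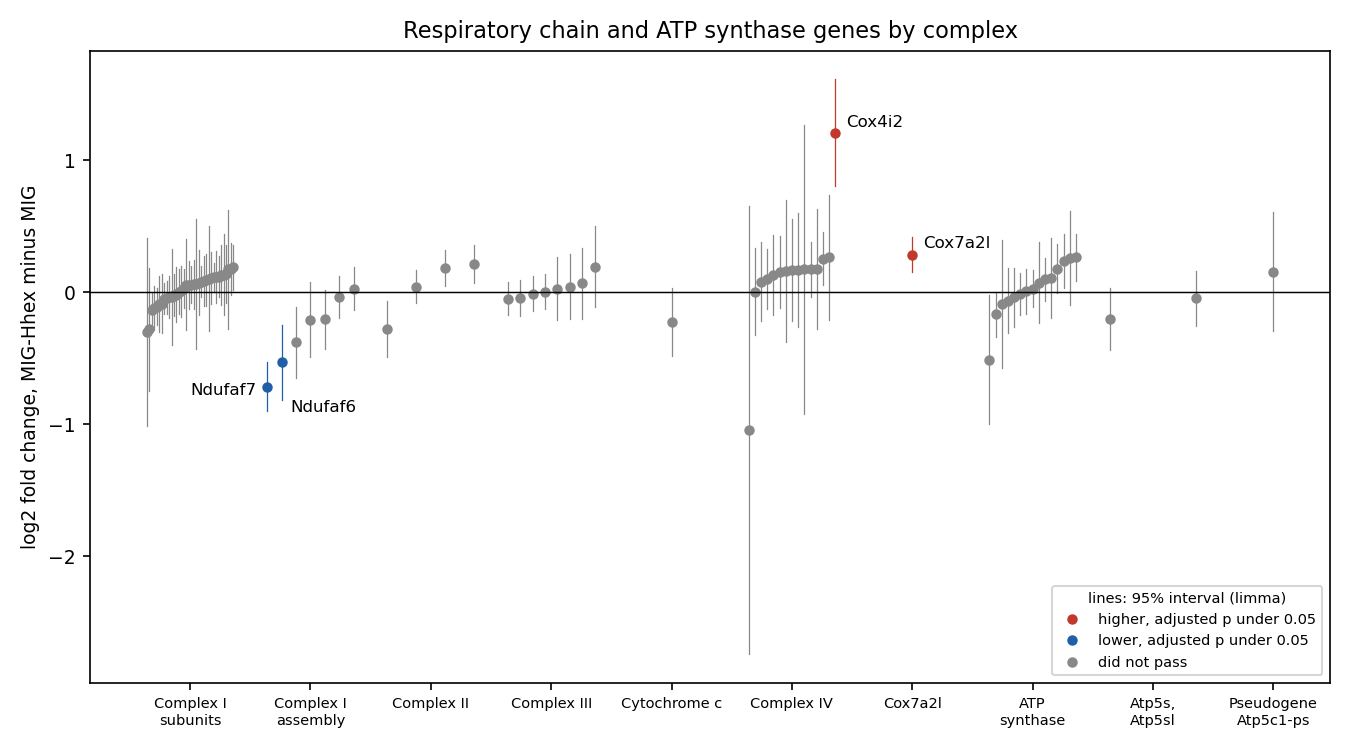
Log2 fold change (MIG-Hhex minus MIG, vertical axis) of each of the 90 genes, grouped by complex along the horizontal axis and ordered by value within it. Points are limma estimates from 3 libraries per group and lines their 95% intervals; Cox4i2 at 1.21 and Cox7a2l at 0.28 are higher (red), Ndufaf7 at -0.71 and Ndufaf6 at -0.53 lower (blue), and most others lie close to 0.

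All 3 MIG-Hhex libraries lay above all 3 MIG libraries for 5 members, Cox4i2, Cox7a2l, Atp5a1, Atp5b and Ndufv1, against 10.2% of all genes. They lay below for 2 members, Ndufaf7 and Ndufaf4, against 11.0% of all genes. These names follow from the count. Within same-numbered pairs of libraries, the difference was above 0 in every pair for 21 members, against 27.5% of all genes, and below 0 in every pair for 15, against 32.8%.

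The members' shared direction varied by pair. The median difference over the 90 genes was -0.05 in pair WT3, 0.16 in pair WT691 and 0.01 in pair WT703, and 59, 21 and 41 of the differences lay below 0. Pair WT691 was thus the high one. Without this pair, 53 of the 90 fitted values lay below 0, and without the MIG library of WT691 alone, 59 did.

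**Figure D2:**
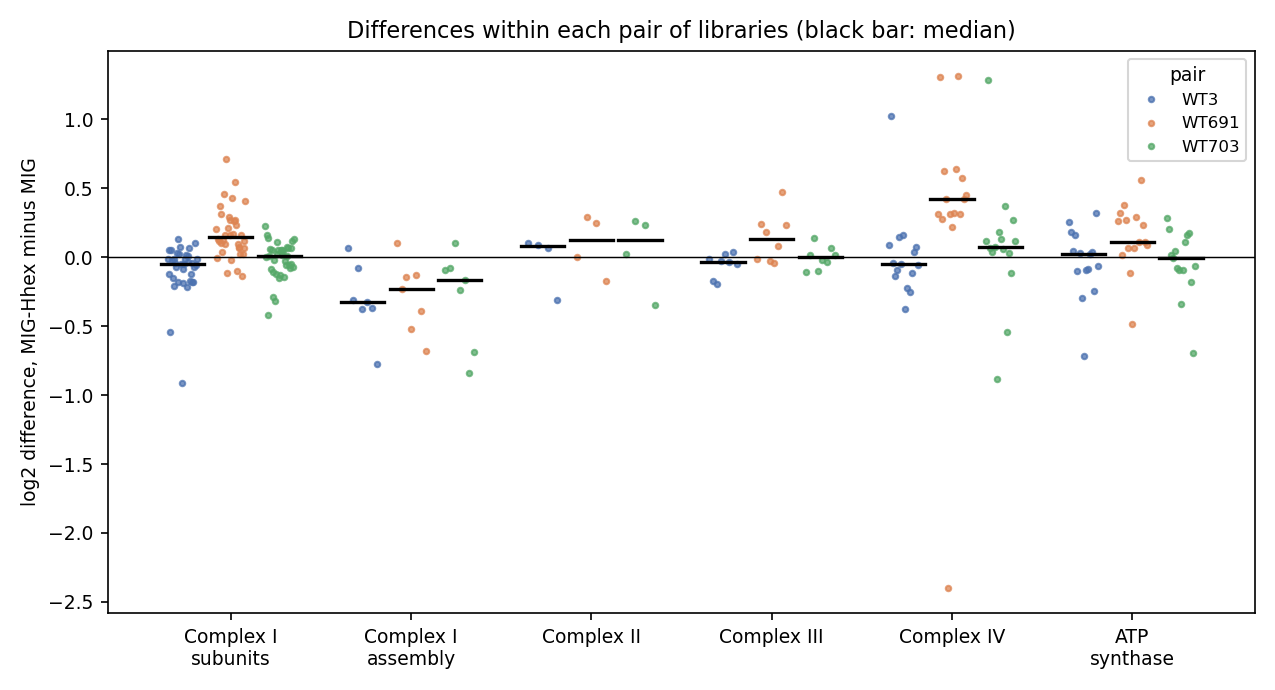
Log2 difference (MIG-Hhex minus MIG, vertical axis) within each pair of libraries, WT3 in blue, WT691 in orange and WT703 in green, for the members of 6 groups along the horizontal axis. Points are genes and black bars medians; complex IV has a median of 0.42 in pair WT691 and -0.05 in pair WT3, while the complex I assembly factors lie below 0 at the median in all 3 pairs.

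Complex I is the largest complex of the chain, with a core that carries flavin and iron-sulfur clusters and many accessory subunits. Of its 36 measured subunit genes, 0 passed the threshold (limma; 2 higher and 1 lower at an unadjusted p under 0.05). Over all genes, 18.0% passed, 34.3% had an unadjusted p under 0.05, and 53.9% of values lay below 0. The subunits' median log2 fold change was 0.06, with 13 values below 0 and 23 above, and the range ran from -0.30 to 0.19. The end of that range above 0 was Ndufa13 (SE 0.07, limma adjusted p = 0.119) and the end below 0 was Ndufb4 (SE 0.30, limma adjusted p = 0.514), both chosen after their values were seen.

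Ndufb8, an accessory subunit often used as a marker of assembled complex I, had the highest MIG mean of the complex, 7.91, with a log2 fold change of 0.09 (SE 0.08, limma adjusted p = 0.474). Ndufb4 had the lowest. Its values were 3.87, 2.31 and 3.18 with MIG and 2.96, 2.47 and 3.03 with MIG-Hhex, for WT3, WT691 and WT703 in turn. They overlap, and the pairs differ in sign. Ndufv1, the core subunit that binds NADH, read 6.74, 6.66 and 6.64 with MIG and 6.84, 6.77 and 6.76 with MIG-Hhex. The groups do not overlap, yet the gap was narrow and did not pass (log2 change 0.11, SE 0.05, limma adjusted p = 0.144).

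The complex I assembly factors of the Ndufaf family, which build the enzyme without staying in it, had log2 fold changes mostly below 0. Of 7 measured, 2 fell and 0 rose (limma; at an unadjusted p under 0.05, 3 lower and 0 higher). Over all genes 8.52% were lower, and 2165 of 12161 were lower at that unadjusted p. The factors' median log2 fold change was -0.21, with 6 values below 0, and the pair medians were -0.32, -0.23 and -0.16. The difference between assembly factors and subunits was not tested.

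Ndufaf7 encodes a methyltransferase that takes part in the assembly of complex I. It lies at chr17:78937106-78948052 of GRCm38.p6 (Entrez gene 73694). With MIG it read 4.43, 4.06 and 4.22, and with MIG-Hhex 3.66, 3.38 and 3.53. Every MIG-Hhex value lies below every MIG value, and the pair differences are alike. The log2 mean fell from 4.24 ± 0.19 to 3.52 ± 0.14 (SD, n = 3), a 1.64-fold fall (log2 change -0.71, SE 0.08, limma adjusted p = 0.00312). The call held in all 9 fits that left out a library or pair, with limma adjusted p from 0.00793 to 0.0265. The fits without pair WT3 or without either WT3 library give the same fold change, because the flow cell term absorbs a lone WT3 library. They are not separate checks, here and for the genes below.

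Ndufaf7 shares its start region with Cebpz, a gene named for a CCAAT-binding protein, which runs in the opposite direction and starts 36 bases from it in the RefSeq annotation. The 300-base window printed above therefore also spans the start of Cebpz. Cebpz fell as well, by 0.45 (log2; SE 0.08, limma adjusted p = 0.0132). In the GENCODE vM21 annotation the exons of these neighbours share 0 bases. Whether reads of one were counted for the other was not tested.

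Ndufaf6, an assembly factor needed early in the build of complex I, lies at chr4:11048991-11076237 (Entrez gene 76947). It read 4.72, 4.14 and 4.57 with MIG and 4.35, 3.75 and 3.73 with MIG-Hhex. Each pair falls, but the groups overlap, since the WT3 value with MIG-Hhex lies above the WT691 value with MIG. The mean fell from 4.48 ± 0.30 to 3.94 ± 0.35 (SD, n = 3), a 1.45-fold fall (log2 change -0.53, SE 0.12, limma adjusted p = 0.0286). This call was lost in 6 of 9 fits. The limma adjusted p was 0.0685 without pair WT3, and 0.0688 and 0.0682 without its MIG or MIG-Hhex library alone. Those fits share the same log2 fold change, -0.614. The call was also lost without pair WT703 (0.0681), and without the MIG-Hhex library of WT691 (0.102) or WT703 (0.0819).

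Ndufaf4, which works with Ndufaf3 on the same intermediates, read 4.90, 4.69 and 4.82 with MIG and 4.52, 4.16 and 4.58 with MIG-Hhex. All MIG-Hhex values are the lower ones. Its log2 fold change of -0.38 (SE 0.11) gave a limma adjusted p of 0.0621, and 0.0132 with the replicate number as a block. Ndufaf5, which hydroxylates the core subunit Ndufs7, had a log2 fold change of -0.21 (limma adjusted p = 0.168), as did Ndufaf2, at -0.21 (0.264). Ndufaf3 and Ndufaf1 lay at -0.04 and 0.03.

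Replicate numbers pair the libraries, and fitting them as a block in place of the flow cell raised the members' calls to 4 higher and 4 lower, against 12.4% and 12.1% of all genes. All 4 members named above remained called. The additions were Ndufaf4, Sdhb, Atp5a1 and Atp5g2.

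Complex II, succinate dehydrogenase, also serves the tricarboxylic acid cycle. None of its 4 genes passed the flow cell fit (limma), against 18.0% of all genes. At an unadjusted p under 0.05, 2 were higher and 1 lower, against 34.3% of all genes in either direction. The median log2 fold change was 0.11. Sdha, the flavoprotein, read 7.64, 7.54 and 7.49 with MIG and 7.74, 7.55 and 7.51 with MIG-Hhex, a log2 fold change of 0.04 (limma adjusted p = 0.616). Sdhb, the iron-sulfur subunit, read 7.72, 7.25 and 7.29 with MIG and 7.80, 7.54 and 7.56 with MIG-Hhex. Its pairs all differ upwards while the groups overlap (log2 change 0.21, SE 0.06, limma adjusted p = 0.0558, and 0.042 with the replicate block).

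The membrane anchors of complex II went in opposite directions at the level of their values. Sdhc read 7.64, 6.99 and 6.99 with MIG and 7.71, 7.24 and 7.22 with MIG-Hhex (log2 change 0.18, SE 0.06, limma adjusted p = 0.0723). Sdhd read 2.32, 3.29 and 3.50 with MIG and 2.01, 3.12 and 3.15 with MIG-Hhex (log2 change -0.28, SE 0.09, limma adjusted p = 0.0782). Neither passed, and the difference between the anchors was not tested. In Sdhc the WT3 libraries are the high ones, and in Sdhd the low ones, in both groups.

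Complex III, cytochrome bc1, passes electrons from coenzyme Q to cytochrome c. Of its 8 measured genes, 0 passed the threshold (limma), against 18.0% of all genes. At an unadjusted p under 0.05, 0 passed, against 34.3% of all genes. Log2 fold changes of the 8 lay between -0.05 and 0.19 with a median of 0.01. Uqcr10, its most highly expressed member at a MIG mean of 8.44, had a log2 fold change of 0.03 (SE 0.10, limma adjusted p = 0.875). Uqcrb, its lowest at 7.24, had 0.04 (SE 0.10, limma adjusted p = 0.802). Cycs, the soluble carrier that also triggers apoptosome assembly, read 3.28, 3.12 and 3.44 with MIG and 2.97, 3.02 and 3.17 with MIG-Hhex. It was lower in each pair, without passing (log2 change -0.22, SE 0.11, limma adjusted p = 0.195).

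Complex IV, cytochrome c oxidase, has a mitochondrially encoded core and nuclear subunits, several with isoforms bound to a tissue or to oxygen supply. Of 15 measured nuclear genes, Cox4i2 rose (6.67%, against 9.44% of all genes) and 0 fell (against 8.52%). Values above 0 made up 14 of the 15, against 5609 of all 12161 genes. The median over the 15 was 0.17, but it was -0.05 in pair WT3, 0.42 in pair WT691 and 0.07 in pair WT703. The difference of Cox4i2 exceeded 1 in each pair.

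Cox4i2, known for its lung expression and its induction by low oxygen, lies at chr2:152753916-152765039 (Entrez gene 84682). It read 4.12, 4.24 and 4.73 with MIG and 5.14, 5.55 and 6.02 with MIG-Hhex. The groups do not overlap, and the pair differences were 1.02, 1.31 and 1.29. The mean rose from 4.36 ± 0.33 to 5.57 ± 0.44 (SD, n = 3), a 2.31-fold rise (log2 change 1.21, SE 0.17, limma adjusted p = 0.00695). The call held in all 9 fits with a library or pair left out, with adjusted p from 0.00446 to 0.0314.

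Cox4i1, the common isoform of the same subunit, lay far above it. Its mean was 9.44 ± 0.30 with MIG and 9.61 ± 0.21 with MIG-Hhex (SD, n = 3), and it did not pass (log2 change 0.17, SE 0.09, limma adjusted p = 0.209). The deposited scale behaves as a level per transcript length, and the transcripts of this pair are alike in length, 765 and 733 bases. On that log2 scale Cox4i1 exceeded Cox4i2 by 5.07 ± 0.51 with MIG and by 4.04 ± 0.62 with MIG-Hhex (SD, n = 3), which are ratios of 33.7 and 16.5. In both groups Cox4i1 remained the main isoform by level.

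In RefSeq the span of Cox4i2 overlaps that of Bcl2l1, an inhibitor of apoptosis on the opposite strand, which rose too (log2 change 0.41, SE 0.09, limma adjusted p = 0.0301). In GENCODE vM21 their exons share 0 bases. Which gene models the authors counted on is not given in the sources used here, so the share of reads from Bcl2l1 in Cox4i2 was not tested. No 50-base stretch of the Cox4i2 transcript was shared with another gene.

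**Figure D3:**
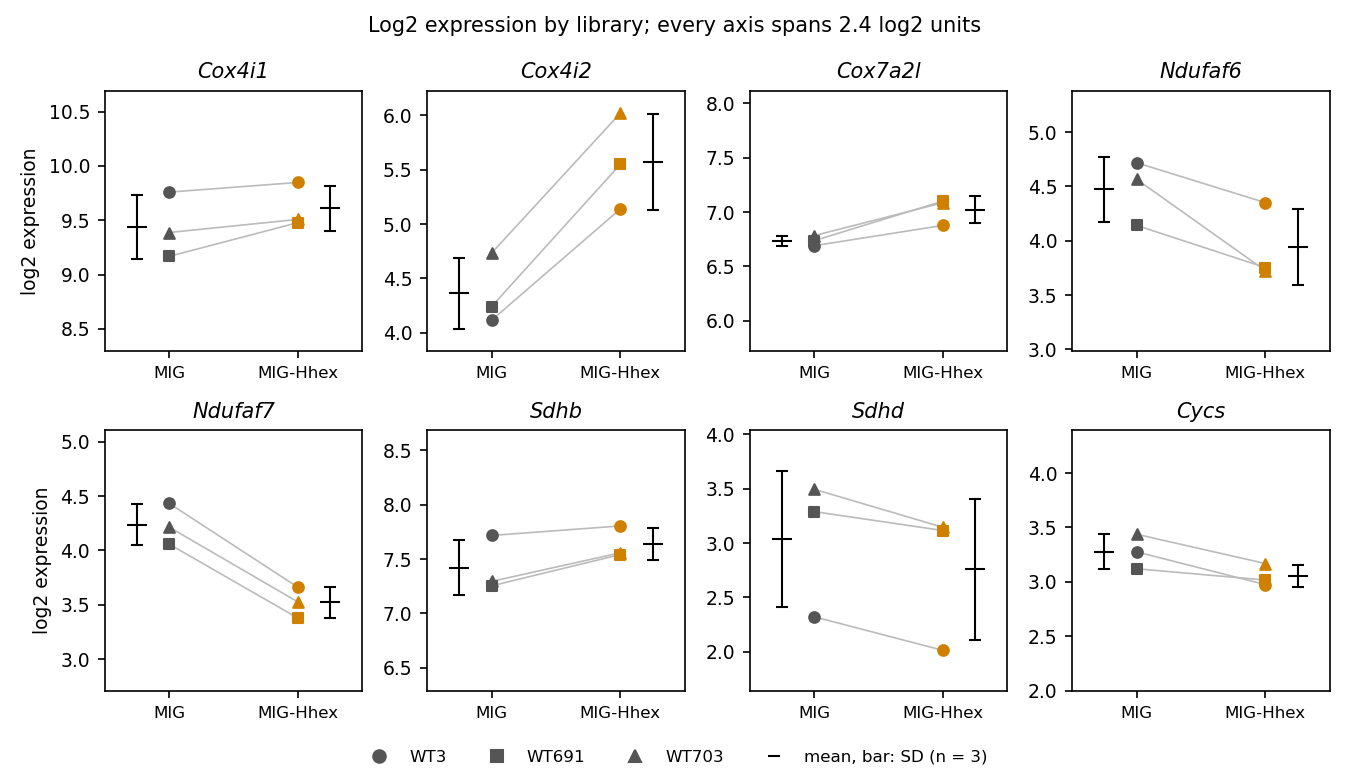
Log2 expression (vertical axes, each spanning the same 2.4 units) of 8 genes in the MIG and MIG-Hhex libraries (horizontal axis); circles, squares and triangles are WT3, WT691 and WT703, grey lines join same-numbered libraries, and bars are the mean and SD of 3. Cox4i2 rises in each pair from a mean of 4.36 to 5.57 and Ndufaf7 falls in each from 4.24 to 3.52, while Cox4i1 goes from 9.44 to 9.61.

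Of the other complex IV isoforms, Cox7a2l apart, 0 passed (limma), and 1, Cox8a, had an unadjusted p under 0.05. Cox6a1 read 9.33, 7.58 and 8.0 with MIG and 9.24, 8.0 and 8.07 with MIG-Hhex (log2 change 0.13, SE 0.13, limma adjusted p = 0.50). Cox6a2 sat near the bottom of the scale, at 0.95, 0.54 and 1.54 with MIG and 1.10, -1.85 and 0.66 with MIG-Hhex. Its log2 fold change of -1.04 (SE 0.71, limma adjusted p = 0.339) rests on the WT691 library with MIG-Hhex, the only value below 0.

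Cox6b1 and its testis isoform Cox6b2 had log2 fold changes of 0.15 and 0.17 (limma adjusted p = 0.391 and 0.497), and their difference in level was 5.41 ± 0.16 with MIG and 5.39 ± 0.12 with MIG-Hhex (SD, n = 3). Cox7a1, the heart and muscle isoform, read 2.23, 1.27 and 1.13 with MIG and 2.01, 1.91 and 1.5 with MIG-Hhex (log2 change 0.26, SE 0.20, limma adjusted p = 0.384). Cox7a2 was the most scattered of these, at 4.75, 1.80 and 3.73 with MIG and 4.50, 3.11 and 3.19 with MIG-Hhex, and its SE of 0.46 allows a sizeable change either way (log2 change 0.17, limma adjusted p = 0.821). Cox8a, the common isoform of the smallest subunit, had a log2 fold change of 0.25 (SE 0.08, limma adjusted p = 0.0822), and Ndufa4, once assigned to complex I and now known as a complex IV subunit, 0.17 (SE 0.18, limma adjusted p = 0.548).

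Cox7a2l is related to the Cox7a subunits and is known for linking complexes III and IV into supercomplexes. C57BL/6 mice, the strain used here, are known to carry a shortened form of the protein. Only RNA was measured, and the function of that form was not. The gene lies at chr17:83501917-83514333 (Entrez gene 20463). It read 6.69, 6.74 and 6.78 with MIG and 6.88, 7.10 and 7.09 with MIG-Hhex. The MIG values lie close together and all MIG-Hhex values lie above them. The mean rose from 6.74 ± 0.05 to 7.02 ± 0.12 (SD, n = 3), a 1.22-fold rise (log2 change 0.28, SE 0.05, limma adjusted p = 0.0175). The call was lost in 5 of 9 fits: without pair WT691 (0.0712) or WT703 (0.113), without the MIG-Hhex library of WT691 (0.0808) or WT703 (0.0627), and without the MIG library of WT703 (0.0663). Of its 50-base windows 17.7% also occur in another gene, Gm6969, so its reads could be split.

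ATP synthase consists of a catalytic head, a stalk and a membrane rotor. Of its 15 measured genes, 0 passed the threshold (limma), against 18.0% of all genes. At an unadjusted p under 0.05, 2 were higher and 1 lower, against 34.3% of all genes in either direction. The median log2 fold change was 0.03, with a range from -0.51 to 0.26. Atp5a1 and Atp5b encode the subunits of the head. Atp5a1 read 9.47, 9.61 and 9.68 with MIG and 9.72, 9.87 and 9.96 with MIG-Hhex. Atp5b read 10.33, 10.10 and 10.21 with MIG and 10.52, 10.41 and 10.41 with MIG-Hhex. Both had every MIG-Hhex library above every MIG library, by a small step (log2 changes 0.26 and 0.23, SE 0.07 and 0.09, limma adjusted p = 0.0542 and 0.106). With the replicate block the adjusted p was 0.0253 for Atp5a1 and 0.0592 for Atp5b.

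Subunit c of the rotor ring is made from 3 genes whose mature proteins are alike. Atp5g3, the highest on the deposited scale, read 10.20, 9.45 and 9.70 with MIG and 10.11, 9.51 and 9.61 with MIG-Hhex (log2 change -0.04, SE 0.09, limma adjusted p = 0.799). Atp5g1 read 6.13, 5.94 and 6.06 with MIG and 5.83, 5.83 and 5.97 with MIG-Hhex (log2 change -0.17, SE 0.07, limma adjusted p = 0.153). Atp5g2, the lowest on that scale, read 2.83, 2.38 and 2.86 with MIG and 2.11, 1.90 and 2.52 with MIG-Hhex. Its values were lower in each pair but overlap between groups (log2 change -0.51, SE 0.20, limma adjusted p = 0.131, and 0.0208 with the replicate block).

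Atp5l, the member with the lowest MIG mean in ATP synthase, had a log2 fold change of -0.09 (SE 0.20, limma adjusted p = 0.787). Of its 50-base windows 84.8% occur in other genes, 12 of them pseudogenes, so its level is uncertain. In all, 48 of the 90 members share at least 1 window with another annotated gene, and 15 share over 25%, among them Atp5h (47.9%), Uqcrb (43.4%), Ndufb4 (37.0%) and Cycs (28.5%). In 36 of the 48 a pseudogene is among the partners. In the other 12 none is, and the partner can be another kind of annotated gene, as Smim27 is for Ndufb6 (34.1%). The remaining 42 share none, among them Cox4i2 and Ndufaf6. Ndufaf7 shares 2.8%. Atp5s and Atp5sl, which carry the prefix but are not subunits of the enzyme's core, had log2 fold changes of -0.20 and -0.05 (limma adjusted p = 0.196 and 0.734).

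Differences between the flow cells were larger than those between the vectors for most members. In MIG libraries, the WT3 value minus the mean of WT691 and WT703 had a median of 0.58 over the 90 members and was above 0 in 79 of them (87.8%), against 52.4% of all genes. With MIG-Hhex the median was 0.40, and 78 (86.7%) were above 0, against 52.2%. In 77 of the 90, the gap with MIG was larger in size than the vector's fold change, as it was in 8031 of all 12161 genes (66.0%). The gap rests on 1 library against 2, and the vector's fold change on 3 against 3. The gap is thus the noisier measure and would tend to be the larger even without a flow cell effect. Members have short transcripts, with a median of 963 bases against 3118 for all genes matched. The gap fell with length across all 11740 genes with a length (Spearman's rho -0.57 with MIG and -0.48 with MIG-Hhex) and across the 90 members (-0.47 and -0.37). These are across genes of the same libraries, which are not independent replicates. Flow cell and replicate WT3 cannot be told apart. Without the flow cell term, 0 members passed (limma), with adjusted p of 0.065 for Ndufaf7, 0.0812 for Cox4i2, 0.248 for Cox7a2l and 0.338 for Ndufaf6, while 119 of all genes were higher and 98 lower.

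**Figure D4:**
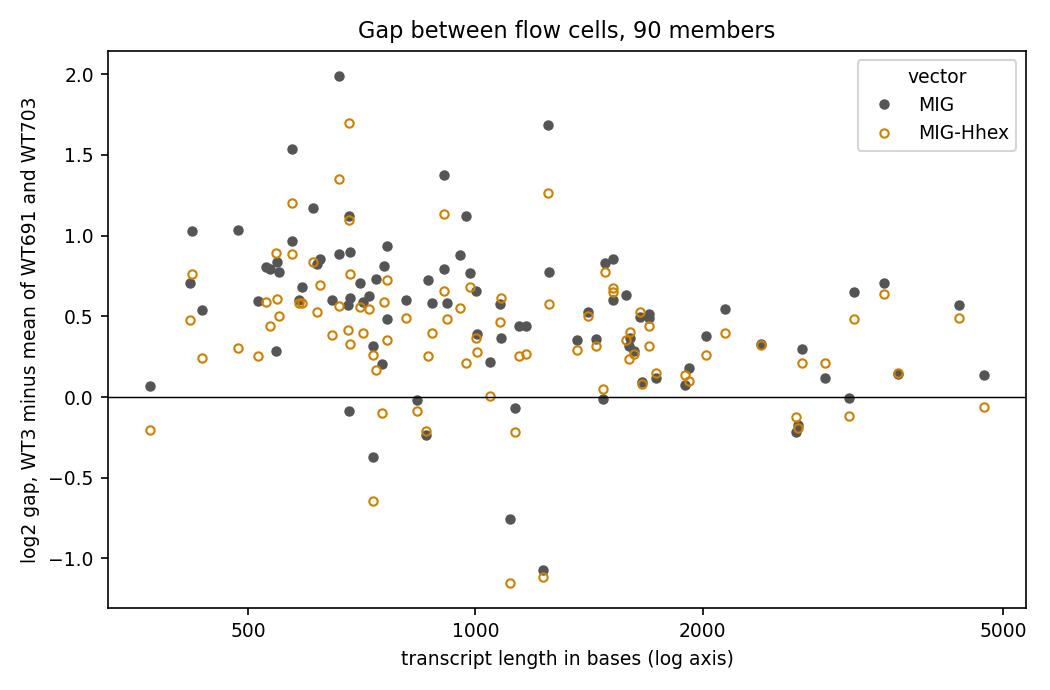
Gap between flow cells (WT3 minus the mean of WT691 and WT703, log2, vertical axis) against transcript length in bases (horizontal axis, log scale) for the 90 members; filled points are MIG and open points MIG-Hhex libraries. Most points lie above 0, and the gap is larger for short transcripts, with medians of 0.58 and 0.40.

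Of the 90 members, 74 had a RefSeq promoter window. The longer NRF1 motif (GCGC, any base, TGCGC) matched in 19 of them (25.7%), against 11.8% of the 9699 genes with a window, and its core GCATGCGC, which overlaps it, in 12 (16.2%, against 6.1%). The YY1 motif AAGATGGC matched in 11 (14.9%, against 5.5%). SP1's GGGCGG was less frequent than among all genes, in 34 (45.9%, against 68.7%), and so was CCGGAAGT of ETS factors and GABPA, in 4 (5.4%, against 9.5%). TGACGTCA of CREB matched in 5 (6.8%, against 3.6%), the E-box CACGTG in 7 (9.5%, against 12%), and the homeobox core TAATTA in 0 (against 3.0%). Both strands were searched, and no test was made. Members with the NRF1 motif, such as Ndufaf4, Ndufaf5 and Sdha above, had a median log2 fold change of -0.04, and those without 0.08. A match describes the letters of the window and is not a binding site.

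Genes that serve the chain from outside it were counted in the same fit. Assembly factors with other names, 43 measured, had 0 higher and 4 lower (limma; 9 lower and 0 higher at an unadjusted p under 0.05), with 29 values below 0 and a median log2 fold change of -0.08. Over all genes, 2165 of 12161 were lower at that unadjusted p, and 53.9% of values lay below 0. The share of these factors called lower, 9.30%, is close to the 8.52% of all genes, so the genes named next are single calls. Surf1, needed to build complex IV, fell by 0.29 (SE 0.05, limma adjusted p = 0.0157). Coa4, a complex IV factor of the intermembrane space, fell by 0.38 (SE 0.07, limma adjusted p = 0.0127), and Lyrm7, which inserts the Rieske protein into complex III, by 0.70 (SE 0.14, limma adjusted p = 0.019). The fourth was Coa6, named after its value was seen, which fell by 0.27 (limma adjusted p = 0.0427). Coa4, Surf1 and Lyrm7 kept their calls in 3, 4 and 2 of 9 fits with a library or pair left out, and their adjusted p was highest without pair WT703 (0.0808, 0.104 and 0.106).

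Proteins of the mitochondrial ribosome, which translates the mitochondrially encoded subunits, had 0 higher and 7 lower of 76 (limma; at an unadjusted p under 0.05, 1 higher and 26 lower). The share called lower, 9.21%, is close to the 8.52% of all genes. At that unadjusted p, 2005 of all 12161 genes were higher and 2165 lower. Values below 0 made up 64 of the 76 (53.9% of all genes), with a median of -0.11, and 50 were below 0 in all 3 pairs (32.8% of all genes). Mrps31 of the small subunit read 5.02, 4.87 and 4.90 with MIG and 4.54, 4.31 and 4.51 with MIG-Hhex. The groups do not overlap, and it fell by 0.48 (SE 0.07, limma adjusted p = 0.00723) with its call kept in all 9 fits. Mrpl44 fell by 0.27 (limma adjusted p = 0.0158) and Mrpl42 by 0.24 (0.0361), calls kept in 2 and 1 of the 9, with adjusted p of up to 0.0797 without pair WT703 for Mrpl44 and 0.144 without the MIG-Hhex library of WT691 for Mrpl42. Of 26 symbols listed for mitochondrially encoded subunits, 0 matched a gene of the deposited data, so none is described here.

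Of 23 tricarboxylic acid cycle and pyruvate dehydrogenase genes, 1 rose and 1 fell, against 9.44% and 8.52% of all genes. Pdk2, a kinase that switches pyruvate dehydrogenase off, read -0.24, -0.71 and -0.81 with MIG and 1.10, 0.64 and 0.76 with MIG-Hhex. The groups are well apart, though at a low level where the log offset matters (log2 change 1.42, SE 0.17, limma adjusted p = 0.00448, and 0.0507 without pair WT703). Cs, citrate synthase, fell by 0.22 (SE 0.05, limma adjusted p = 0.0369), a call lost in each of the 9 fits, with adjusted p from 0.052 to 0.195.

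Among 15 regulators of mitochondrial biogenesis, 1 rose and 1 fell (6.67% each, against 9.44% and 8.52% of all genes). Polg, the mitochondrial DNA polymerase, rose by 0.64 (SE 0.14, limma adjusted p = 0.0283, and up to 0.11, without the MIG-Hhex library of WT3). Mterf1a, a mitochondrial transcription factor, fell by 0.61 (SE 0.10, limma adjusted p = 0.0115, and 0.0837 without pair WT703). The calls of Polg and Mterf1a were each kept in 4 of the 9 fits with a library or pair left out. Of 13 coenzyme Q synthesis genes, 0 rose and 2 fell (8.52% of all genes were lower), Coq5 by 0.23 and Pdss1 by 0.32 (limma adjusted p = 0.0488 and 0.0496). The call of Coq5 was lost in all 9 fits with a library or pair left out, with adjusted p of up to 0.229 without pair WT703. That of Pdss1 was kept in 1 of the 9, with adjusted p of up to 0.166 without the MIG-Hhex library of WT691. Prdx5, a peroxiredoxin, rose by 0.56 (SE 0.09, limma adjusted p = 0.0108, and 0.0583 without pair WT703) as the sole call among 12 antioxidant and uncoupling genes. That is 8.33% of the list, against 9.44% of all genes called higher. Of 18 membrane and import genes, 0 passed (limma), against 18.0% of all genes, and 1 was higher at an unadjusted p under 0.05. Values below 0 made up 14 of the 18, against 53.9% of all genes.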

How the data were processed

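The authors deposited 1 log2 value per Entrez gene and library. Its normalization and offset: not given in the sources used here. Subread, featureCounts, edgeR and limma, with build mm10, are the tools listed per the submitters' processing notes. Depth is unknown, so no counting interval is given, and the number of libraries limits precision. In 60 rows no symbol is given.

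All 12161 genes were fitted with limma 3.58.1 in R 4.3.3, with terms for flow cell and vector (3 residual degrees of freedom) and eBayes with a mean-variance trend. Tests were two-sided, with Benjamini-Hochberg adjustment across the table and 0.05 as threshold. On simulated data with 200 changed genes of 12161, 72% of changes of 1 log2 unit and 84% of 2 log2 units were recovered. That is a smaller share of changed genes than the 18.0% called in the data. Changes below 1 log2 unit were not simulated, so recovery at the size of most members' changes is unknown. Groups come from the vector label. Members and lists were chosen with earlier results of these data known. Members named by rule are those called, the highest and lowest of each complex by MIG mean, isoform families, complex II and Cycs. In other lists, the rule takes up to 3 called genes with the smallest p. Genes outside this rule include Ndufv1, Ndufaf4, Atp5a1, Ndufa13 and Coa6, which were named after their values were seen, and Ndufaf1 and Ndufaf3.

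Deviations from the group means correlated between same-numbered libraries (0.742 for WT3, 0.585 for WT691, 0.656 for WT703), so the numbers pair the libraries. The main fit holds the flow cell and not these pairs, while the fit with the replicate number as a block holds them. Coordinates and promoters are from RefSeq GRCm38.p6, the build mm10 names, to which 12052 genes matched. Exons and 50-base windows shared with other genes come from GENCODE vM21.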

Additional observations from a re-analysis of the deposited data

How the results depend on the processing

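Calls among the 90 members were few, and their number moved with the model. The 2 higher became 4 with the replicate block, 4 after quantile normalization, 1 without a mean-variance trend and 0 without the flow cell term, and 1 to 2 with a library or pair left out. The 2 lower became 4 with the replicate block, 1 on flow cell C5LWPANXX alone, 1 without the trend and 0 without the flow cell term, and 1 to 4 with a library or pair left out. Cox4i2 and Ndufaf7 were called in every fit run except that without the flow cell term. The fit on flow cell C5LWPANXX alone and the fit without pair WT3 use the same libraries. Leaving out a single WT3 library gives the same fold changes as those fits. Over all genes, the 1148 higher became 119 without the flow cell term and 698 on flow cell C5LWPANXX alone (355 to 835 with a library or pair left out). The 1036 lower became 98, 519 and, without the trend, 638 (270 to 634 left out). The replicate block gave 1506 and 1473. The members' median stayed between -0.045 and 0.107. Signs turned for small values: Ndufb4 was 0.0031 on flow cell C5LWPANXX alone, Uqcr10 -0.056 with a GC trend and -0.042 with a length trend removed, and Uqcrb -0.00148 with the length trend removed. With a library or pair left out, Atp5g3 ran from -0.118 to 0.024, Atp5l from -0.293 to 0.213, Atp5sl from -0.133 to 0.036, Cox6a1 from -0.020 to 0.245, Cox7a2 from -0.441 to 0.666, Ndufa4 from -0.044 to 0.319, Ndufb4 from -0.636 to 0.0031, Uqcr10 from -0.080 to 0.127 and Uqcrb from -0.054 to 0.161. The causes were not tested. Removal of a trend on expression level was chosen after seeing the data.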

Other observations

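Across genes, the log2 fold change rose with the GC content of the transcript over all 11740 genes with a value (Spearman's rho 0.30) and less over the 90 respiratory chain and ATP synthase genes (0.19), whose median GC content, 50.2%, was close to the 50.1% of all genes. The rho with expression level was 0.35 among the members and 0.01 over all 12161 genes. Genes of the same libraries are not independent replicates, so these are descriptions.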
